A study of Mus musculus with 4 samples.

Results

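Transcripts of 10 genes of MHC class I antigen presentation were followed in T helper 17 (Th17) cells, the CD4 T cells that make IL-17 cytokines. The genes were taken by symbol from the authors' table of 23356 gene rows, and each symbol matched 1 row. They are the class I heavy chains H2-K1 and H2-D1, the light chain B2m, the peptide-loading genes Tap1, Tap2 and Tapbp, the immunoproteasome subunits Psmb8, Psmb9 and Psmb10, and the regulator Nlrc5. RNA came from wild-type C57BL/6 mice aged 6 to 8 weeks, as T cells kept for 48 h in Th17 culture. Of 4 libraries, 2 were from cultures with recombinant murine serum amyloid A1 (SAA1), labelled as 2 ng/ml, and 2 from cells with no SAA1, titled veh and called vehicle here. SAA1 is an acute-phase protein made by liver and gut epithelium, and the comparison asks which Th17 transcripts differ in its presence.

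Almost every nucleated cell shows fragments of its own proteins on MHC class I molecules, where CD8 T cells read them. Proteasomes cut the proteins, the TAP transporter carries the peptides into the endoplasmic reticulum, and tapasin holds the class I molecule beside TAP until a peptide fits. Interferons raise most genes of this pathway in many cell types, and NLRC5 is the transactivator that drives class I genes in lymphocytes, as CIITA does for class II.

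Levels are the authors' FPKM (fragments scaled to transcript length and to the fragments mapped), with 1 value per group that Cuffdiff computed over both of its libraries. Values per library were not used here, so no spread between libraries can be shown, the depth is unknown, and the error given is the standard error (SE) implied by the deposited test statistic. The labels do not say whether the libraries of a group came from separate cultures or animals, so that error may be technical. In bulk RNA, fewer cells of a type and less RNA per cell cannot be told apart.

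None of the 10 genes differed between SAA1 and vehicle by the authors' Cuffdiff test at an adjusted p under 0.05. All 10 were tested and 0 were called, where 6.52% of the 11481 tested rows were called, 3.97% higher and 2.55% lower. At thresholds of 0.01 and 0.1 again 0 members were called, against 3.80% and 8.81% of tested rows. Of the members, 3 had a higher value with SAA1 and 7 a lower one, with log2 ratios between -0.38 and 0.16. At an unadjusted p under 0.05 there were 2, Nlrc5 and Tap1, both lower, against 15.8% of tested rows in either direction and 7.62% lower. The median log2 ratio of the 10 members, with a pseudocount of 0.1 FPKM, was -0.13, beside -0.02 over the 10701 rows with at least 1 FPKM in either group. The same cells differed strongly at the IL-17 locus, where Il17a stood at 568 FPKM with SAA1 and 56.0 FPKM with vehicle.

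The starts of the class I genes carry the control module that NLRC5 acts through, and the stretches upstream of H2-K1, H2-D1, B2m and Tap1 are shown because these genes share regulators. The sequences are RefSeq's on build GRCm38, each read 5′ to 3′ along the gene, at chr17:34000349-34000468 on the minus strand for H2-K1, chr17:35262913-35263032 for H2-D1, chr2:122147529-122147648 for B2m and chr17:34187436-34187555 for Tap1, all 3 on the plus strand. Capitals mark 4 kinds of letters searched on both strands: GAANNGAAA or GAANNNGAA (the interferon-response type), the NF-kB consensus, TGACG (the CRE type) and ATTGG (the Y box). Adjoining or overlapping matches run together. H2-K1 had 2 RefSeq windows, and the one with its start nearest the authors' locus was used. RefSeq's longer H2-K1 span ends at 34000619, so the printed stretch lies inside that span.

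H2-K1: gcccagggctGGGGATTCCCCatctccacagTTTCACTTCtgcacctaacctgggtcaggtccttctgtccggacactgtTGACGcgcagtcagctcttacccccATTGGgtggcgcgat

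H2-D1: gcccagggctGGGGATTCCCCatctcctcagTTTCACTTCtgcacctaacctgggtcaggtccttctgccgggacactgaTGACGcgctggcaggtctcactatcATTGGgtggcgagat

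B2m: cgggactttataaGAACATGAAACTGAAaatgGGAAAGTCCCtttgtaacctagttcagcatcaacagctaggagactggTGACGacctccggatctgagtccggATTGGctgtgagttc

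Tap1: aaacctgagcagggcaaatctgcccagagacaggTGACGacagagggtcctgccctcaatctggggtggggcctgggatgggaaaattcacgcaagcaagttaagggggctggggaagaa

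The H2-K1 and H2-D1 stretches were identical at 108 of 120 bases (90.0%), and each was identical to the B2m stretch at 47 and 46 bases. In all 3, TGACG was followed by ATTGG after a gap of 20 bases. Among RefSeq windows of the 250 bases before a gene start, 211 of 32851 (0.642%) hold TGACG and ATTGG in this order on 1 strand with a gap of 10 to 30 bases. The Tap1 window held TGACG with no ATTGG at that distance. Of the members, 8 had a window in the RefSeq table, and 3 of the 8 held the pair. The interferon-response letters were in the same 3, against 22.7% of all windows, and so was the NF-kB consensus, against 7.25%. TGACG was in 5, against 17.8% of windows, and ATTGG in 6, against 33.8%. Tap1 and Psmb9 are read in opposite directions with 225 bases between their starts, so their windows overlap. These matches are letters in a window, not measured sites.

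The heavy chains H2-K1 and H2-D1 encode the polymorphic chains that hold the peptide. H2-K1 was at 483 FPKM with SAA1 and 431 FPKM with vehicle, a log2 ratio of 0.16 ± 0.20 (SE). H2-D1 was at 225 FPKM with SAA1 and 203 FPKM with vehicle, a log2 ratio of 0.15 ± 0.20. Both values were higher with SAA1, by less than 1 SE. Neither passed, with adjusted p of 0.69 for H2-K1 and 0.72 for H2-D1 by the authors' deposited table. The 95% interval from the SE ran from 0.851-fold to 1.48-fold for H2-K1 and from 0.845-fold to 1.46-fold for H2-D1. The FPKM of H2-K1 was 2.15 times that of H2-D1 with SAA1 and 2.13 times with vehicle.

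B2m encodes beta-2 microglobulin, the light chain that all classical class I molecules need to reach the surface. Its value was 439 FPKM with SAA1 and 508 FPKM with vehicle, a log2 ratio of -0.21 ± 0.20. By the authors' deposited table its adjusted p was 0.52, and the interval ran from 0.658-fold to 1.13-fold. B2m had a lower value with SAA1 where the heavy chains had a higher one, but each of the 3 differences was near or under its SE, and the difference between the genes was not tested. Set against the summed FPKM of H2-K1 and H2-D1, B2m stood at 0.619 with SAA1 and 0.801 with vehicle. With these values the class I chains were among the most abundant transcripts of the cells: H2-K1 ranked 169th with SAA1 and 182nd with vehicle of all rows by FPKM, and B2m 182nd with SAA1 and 157th with vehicle.

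**Figure D1:**
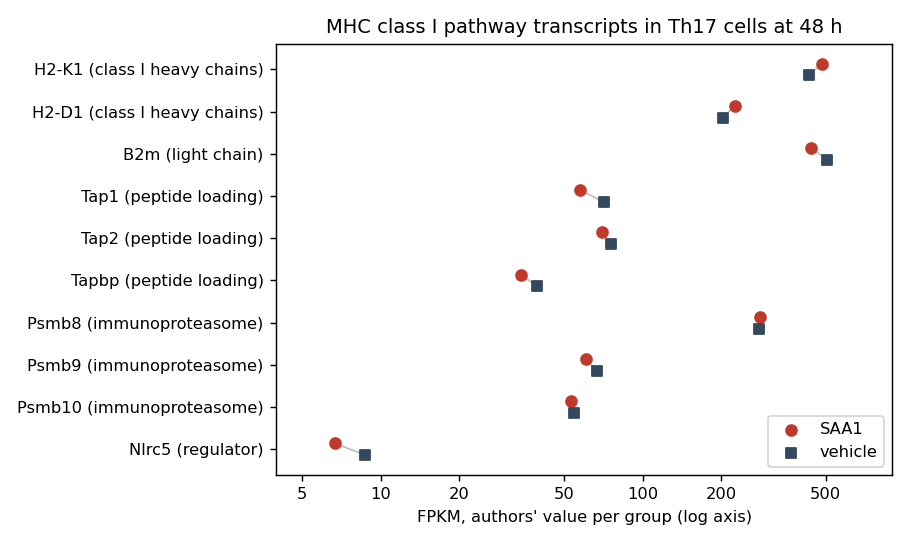
Authors' FPKM per group on a log axis for the 10 members, ordered by role, with SAA1 as circles and vehicle as squares joined by a line. Each pair of points lies close together beside the spread of levels between genes, from 6.72 FPKM for Nlrc5 with SAA1 to 508 FPKM for B2m with vehicle.

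Tap1 and Tap2 encode the paired chains of the peptide transporter, and Tapbp encodes tapasin. Tap1 was at 57.9 FPKM with SAA1 and 71.0 FPKM with vehicle, a log2 ratio of -0.29 ± 0.20. By the authors' deposited table its unadjusted p was 0.033 and its adjusted p 0.24. Tap2 was at 70.2 FPKM with SAA1 and 76.0 FPKM with vehicle, a log2 ratio of -0.11 ± 0.20 (adjusted p 0.82, by the authors' deposited table). Tapbp was at 34.3 FPKM with SAA1 and 39.7 FPKM with vehicle, a log2 ratio of -0.21 ± 0.20 (adjusted p 0.54, by the authors' deposited table). All 3 values were lower with SAA1 and none passed the test. Tap1 and Tap2, which pair in 1 transporter, were near equal in level, with Tap1 at 0.825 of Tap2 with SAA1 and 0.935 with vehicle.

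Psmb8, Psmb9 and Psmb10 encode the catalytic subunits that replace Psmb5, Psmb6 and Psmb7 when the immunoproteasome is assembled. Psmb8 was at 279.7 FPKM with SAA1 and 279.0 FPKM with vehicle, a log2 ratio of 0.00 ± 0.20. Its interval, from 0.765-fold to 1.31-fold, leaves out larger changes in either direction. Psmb9 was at 60.6 FPKM with SAA1 and 67.0 FPKM with vehicle, a log2 ratio of -0.14 ± 0.21. Psmb10 was at 53.3 FPKM with SAA1 and 54.9 FPKM with vehicle, a log2 ratio of -0.04 ± 0.21. The authors' deposited table gives adjusted p of 0.99 for Psmb8, 0.77 for Psmb9 and 0.97 for Psmb10. Psmb9 shares its start region with Tap1, and both had a lower value with SAA1, neither called.

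The constitutive partners, which are made in most tissues, did not pass the test either. Psmb5 was at 109.1 FPKM with SAA1 and 105 FPKM with vehicle, Psmb6 at 247 FPKM with SAA1 and 245 FPKM with vehicle, and Psmb7 at 353 FPKM with SAA1 and 358 FPKM with vehicle. By FPKM, Psmb8 stood above its partner in both groups, at 2.56 times Psmb5 with SAA1 and 2.65 times with vehicle. The other pairs were the reverse, with Psmb9 at 0.246 of Psmb6 with SAA1 and 0.274 with vehicle, and Psmb10 at 0.151 of Psmb7 with SAA1 and 0.153 with vehicle. These ratios are of transcript levels per length and have no error of their own. Of the 50-base stretches of Psmb5, 54.1% also occur in another annotated gene, most of them in Gm3375, and of those of Psmb7 28.1%, in Nek6, so these ratios are uncertain.

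Nlrc5 had the lowest level and the largest ratio of the 10 members. It was at 6.72 FPKM with SAA1 and 8.73 FPKM with vehicle, 0.769-fold, with a log2 ratio of -0.38 ± 0.21. In the authors' deposited table the unadjusted p was 0.0099 and the adjusted p 0.11, so it was not called. Its interval ran from 0.578-fold to 1.02-fold and held no change. A normal p of the deposited statistic, a check added after the data were seen, was 0.071 for Nlrc5 and 0.14 for Tap1, both larger than the deposited p.

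**Figure D2:**
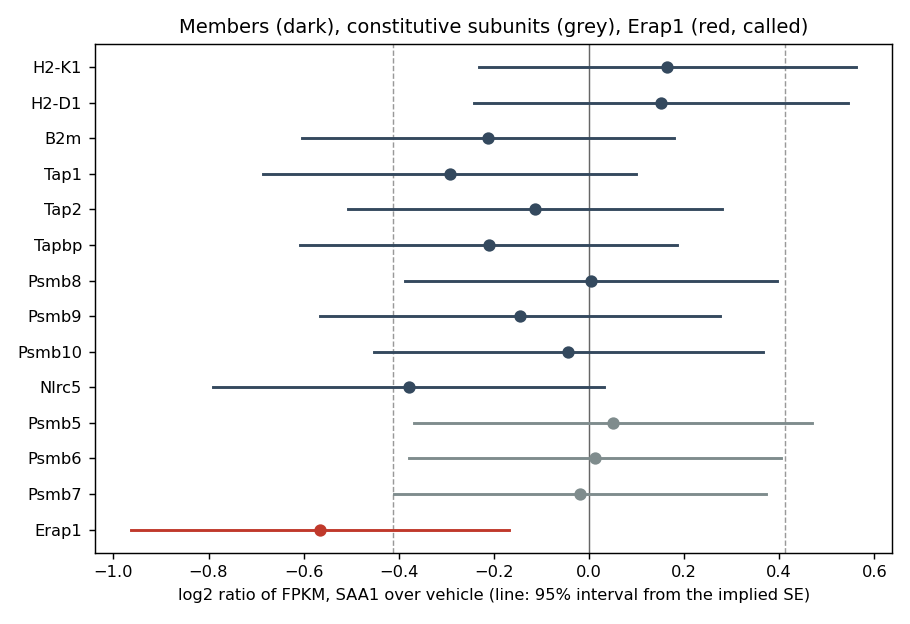
Log2 ratio of FPKM, SAA1 over vehicle, for the 10 members (dark), the 3 constitutive catalytic subunits (grey) and Erap1 (red), with the 95% interval from the implied SE. Dashed lines mark 0.41 in each direction, the smallest called difference at the members' levels, and the intervals of the 10 members all cross 0 while that of Erap1 does not.

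The sizes of the differences called at these levels can be set beside the members. Of 7583 tested rows with a mean FPKM within the members' range, 6.72 to 508, the authors' test called 343 (4.52%), and the smallest called difference among them was 0.41 on the log2 scale (1.33-fold). Every member lay under that size, which is the smallest found over a wide range of levels and not a limit for any single gene. The SE of the members was between 0.20 and 0.21, against a median of 0.22 over all tested rows. The 95% intervals of 6 of the 10 members lay wholly within a 1.5-fold change in either direction, and those of B2m, Tap1, Tapbp and Nlrc5 reached below it.

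Reads of related genes limit some of these values. In GENCODE coding transcripts, 6.87% of the 50-base stretches of H2-K1 and 13.9% of those of H2-D1 also occur in transcripts of another gene, on either strand. A row named for the heavy chain H2-L has the same locus as H2-D1 in the table, at 3.58 FPKM with SAA1 and 2.79 FPKM with vehicle. Its SE is 2.20, and its level may not be separate from that of H2-D1. B2m has a locus of chr2:122120108-122186189 in the table, shared with the rows for Patl2 and Trim69, both under 1 FPKM. B2m, Nlrc5 and Psmb10 had no 50-base stretch in common with another gene. For Tapbp the share was 22.4%, most of it with the annotated gene Gm19412, and for Tap2 12.1%.

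The members sit on 3 chromosomes. By mm10 positions in the table, Nlrc5 spans chr8:94472763-94527272 and Psmb10 spans chr8:105935728-105938392. The other 7 lie in the MHC on chromosome 17, in order Tapbp (chr17:33919478-33929290), H2-K1 (chr17:33996012-34000333), Psmb9 (chr17:34182099-34187330), Tap1 (chr17:34187556-34197225), Psmb8 (chr17:34198195-34201454), Tap2 (chr17:34204479-34216321) and H2-D1 (chr17:35263094-35267497). These spans hold exons and introns together, as the authors' annotation drew them. RefSeq on GRCm38 starts Nlrc5 at 94434335, further upstream, ends H2-K1 at 34000619 and starts the Psmb9 span at 34182030.

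Counted in either direction, the interval around these 7 members held a share of calls near that of the whole table. From Tapbp to H2-D1 the table has 100 rows, 68 of them tested, of which 5 (7.35%, against 6.52% of all tested rows) were called. All 5 were higher with SAA1, where 3.97% of all tested rows were called higher and 2.55% lower, and none was a member. The count was 3 at an adjusted p under 0.01 or with a fold minimum of 1.5, and 1 with a normal p of the statistic. H2-Ab1, an MHC class II chain, was at 10.01 FPKM with SAA1 and 4.60 FPKM with vehicle (log2 ratio 1.12 ± 0.29). Lta and Ltb, the genes of the lymphotoxins, were at 151 and 105 FPKM with SAA1, against 97.3 and 76.2 FPKM with vehicle. Tnf, which lies between them, was at 128.3 FPKM with SAA1 and 128.1 FPKM with vehicle and was not called. Ppt2, a lysosomal thioesterase, was at 12.3 FPKM with SAA1 and 7.32 FPKM with vehicle, and Pbx2, a homeobox factor, at 15.7 FPKM with SAA1 and 11.1 FPKM with vehicle. The authors' deposited table gives adjusted p of 0.0019 for H2-Ab1, Lta and Ppt2, 0.034 for Ltb and 0.022 for Pbx2. The median log2 ratio was 0.13 over the 55 other expressed rows of the interval. It was 0.09 over all 62 expressed rows, members included.

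**Figure D3:**
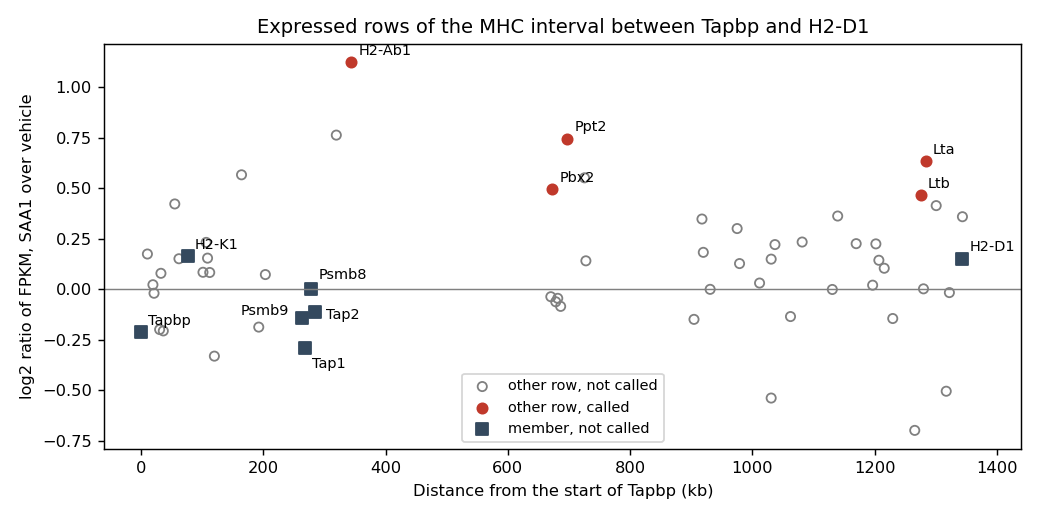
Log2 ratio of FPKM, SAA1 over vehicle, against distance in kb from the start of Tapbp, for rows of the MHC interval. Shown are the 62 rows with at least 1 FPKM in either group, except Mir219-1. That row was at 8.88 FPKM with SAA1 and 0 FPKM with vehicle, so its ratio has no finite value. Squares are the 7 members, none called, and the 5 filled circles are the called rows, all above 0.

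Beyond the 10 members, the class I pathway held a single call. Erap1, the aminopeptidase that trims peptides in the endoplasmic reticulum, fell to 23.2 FPKM with SAA1, against 34.3 FPKM with vehicle. Its log2 ratio was -0.57 ± 0.20, and by the authors' deposited table its adjusted p was 0.0019. It was the only one called, and lower, of 12 genes for other loading and trimming steps, where 6.52% of all tested rows were called. The call ended with a fold minimum of 1.5, and with a normal p of the statistic. Hspa5, an endoplasmic reticulum chaperone, was at 518 FPKM with SAA1 and 618 FPKM with vehicle and was not called. The median of the 12 was -0.11.

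The proteasome lists held no call by Cuffdiff. Of 9 genes for proteasome activators and assembly, 2 had an unadjusted p under 0.05, both lower with SAA1. Of all tested rows, 15.8% had such a p in either direction and 7.62% were lower. The 2 genes were the assembly chaperones Psmg4, at 49.0 FPKM with SAA1 and 67.0 FPKM with vehicle, and Psmg2, at 69.3 FPKM with SAA1 and 89.1 FPKM with vehicle. Psme1 and Psme2, the interferon-inducible activator subunits, were at 134 and 30.3 FPKM with SAA1, against 136 and 33.1 FPKM with vehicle. Of the 11 other subunits of the 20S core, 0 had an unadjusted p under 0.05, and their log2 ratios lay between -0.13 (Psma3) and 0.06 (Psmb2). Psmb4 had the next largest ratio in size after Psma3, at -0.09.

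Non-classical class I genes, which present to more specialised receptors or sit beside the classical genes, held no call among 12 tested rows. An unadjusted p under 0.05 was found for 3, all higher with SAA1. Of all tested rows, 15.8% had such a p in either direction and 7.62% were lower. The 3 were H2-Q8, H2-Q10 and H2-Bl. H2-Q8, in a locus shared with another row, was at 4.76 FPKM with SAA1 and 3.12 FPKM with vehicle. H2-Q10 was at 0.822 FPKM with SAA1 and 0.398 FPKM with vehicle. The 12 tested rows include one named for H2-L, a classical heavy chain. It has the same locus as H2-D1 and an SE of 2.20, so its level may not be separate from that of H2-D1. H2-T23, which encodes the Qa-1 molecule, was the most abundant, at 119 FPKM with SAA1 and 103 FPKM with vehicle. H2-Bl had the largest ratio of the expressed members, at 1.11 FPKM with SAA1 and 0.567 FPKM with vehicle. H2-Q9 was at 0.586 FPKM with SAA1 and 1.02 FPKM with vehicle, with an SE of 1.66 on the log2 scale. These genes are close copies of each other, and 29.8% of the 50-base stretches of H2-T23 occur in another gene, so their values are uncertain. H2-Q6, H2-Q7 and H2-T22 were not analysed here.

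Factors that act at class I promoters did not pass the test. Of 13 tested genes, 0 were called by Cuffdiff and 2 had an unadjusted p under 0.05, both lower. Of all tested rows, 15.8% had such a p in either direction and 7.62% were lower. The 2 genes were Nfya, a Y box factor, at 7.16 FPKM with SAA1 and 9.15 FPKM with vehicle, and Nlrc3, a relative of Nlrc5, at 0.553 FPKM with SAA1 and 0.8998 FPKM with vehicle. Rfx5, which binds the X box, was at 5.96 FPKM with SAA1 and 6.55 FPKM with vehicle. Irf1, a class I activator induced by interferon, was at 18.3 FPKM with SAA1 and 20.9 FPKM with vehicle, and Irf2, which binds the same letters, at 4.33 FPKM with SAA1 and 5.10 FPKM with vehicle. Ciita, the class II transactivator, was at 0.00440 FPKM with SAA1 and 0.0319 FPKM with vehicle and was not tested. Of 9 tested class II genes, H2-Ab1 was called higher and Cd74, the invariant chain, lower, where 6.52% of all tested rows were called. Cd74 was at 10.9 FPKM with SAA1 and 19.4 FPKM with vehicle, in a locus shared with another row.

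Some other genes induced by interferon fell with SAA1. Of 15 tested interferon gamma induced GTPases, which act against intracellular microbes, 5 were called lower and 0 higher, against 2.55% of all tested rows called lower. Gbp2 fell to 19.7 FPKM with SAA1, against 32.3 FPKM with vehicle, and Gbp5 to 3.48 FPKM with SAA1, against 6.40 FPKM with vehicle. Gbp3, Gbp7 and Iigp1 also fell, at 1.01, 0.420 and 0.429 FPKM with SAA1, against 1.75, 1.01 and 0.942 FPKM with vehicle. Others in the list were not called, among them Igtp at 27.9 FPKM with SAA1 and 28.9 FPKM with vehicle. The median of the 12 expressed genes was -0.50, with -0.31 for a pseudocount of 1 FPKM and -0.29 over the 5 genes with at least 5 FPKM. With a normal p of the statistic the count was 3.

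Of 16 tested antiviral interferon-stimulated genes, 7 were called lower and 0 higher, against 2.55% of all tested rows called lower. The median of the 14 expressed was -0.73, or -0.44 with a pseudocount of 1 FPKM. Ifih1, an RNA sensor, fell to 10.7 FPKM with SAA1, against 22.7 FPKM with vehicle, a log2 ratio of -1.09 ± 0.20. Ifit1, Oas3, Trim30a, Usp18, Cmpk2 and Xaf1 were the other calls, with log2 ratios between -2.04 (Xaf1) and -0.76 (Trim30a). Xaf1 was at 0.128 FPKM with SAA1 and 0.530 FPKM with vehicle, under 1 FPKM in both groups, so it is outside the median. Cmpk2, Ifit1 and Usp18 were also low, at 0.568, 0.875 and 1.25 FPKM with SAA1, against 1.15, 2.35 and 2.27 FPKM with vehicle. Oas3 and Trim30a were at 2.84 and 8.58 FPKM with SAA1, against 5.98 and 14.5 FPKM with vehicle. Bst2 was the most abundant of the list and was not called, at 85.6 FPKM with SAA1 and 80.2 FPKM with vehicle. The difference between these lists and the class I members was not tested, and with a normal p of the statistic the count was 4.

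**Figure D4:**
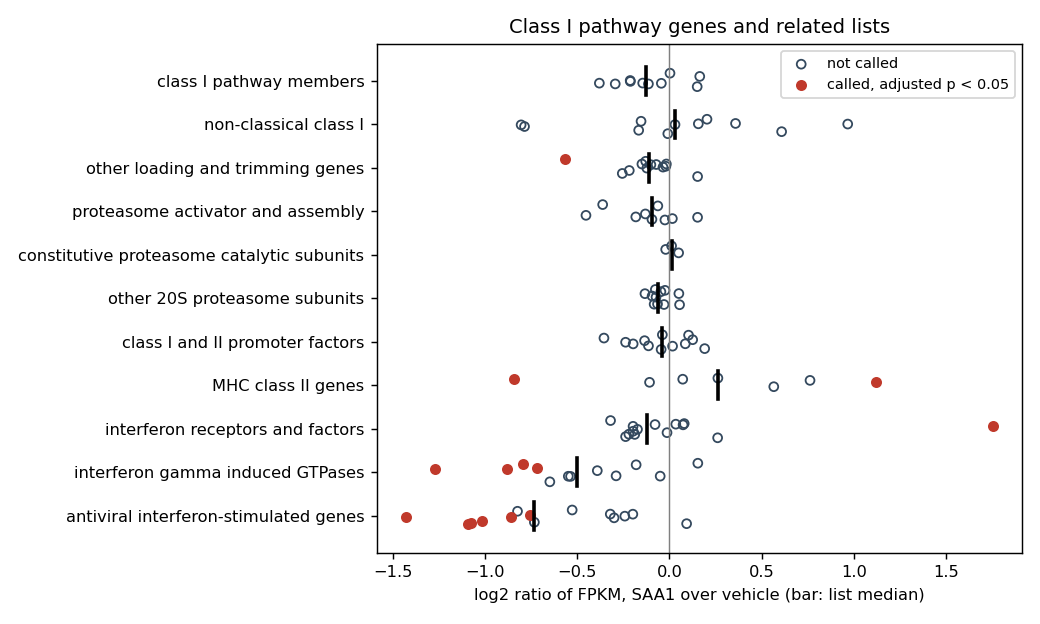
Log2 ratio of FPKM, SAA1 over vehicle, for rows with at least 1 FPKM in either group in the members and 10 related lists, with filled points for called rows and a bar at each list's median (pseudocount 0.1 FPKM). The 10 members lie between -0.38 and 0.16 with no call, while the medians of the interferon gamma induced GTPases and the antiviral genes lie at -0.50 and -0.73, or -0.31 and -0.44 with a pseudocount of 1 FPKM.

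The transcripts of interferon signalling itself held 1 call among 15 tested genes, a share near the 6.52% of all tested rows called. Irf8, a factor that binds interferon-response letters with partners, rose to 28.5 FPKM with SAA1, against 8.45 FPKM with vehicle (log2 ratio 1.75 ± 0.22, adjusted p 0.0019 by the authors' deposited table). Irf9, a DNA-binding factor of the type I response, was at 10.6 FPKM with SAA1 and 13.2 FPKM with vehicle (adjusted p 0.26, by the authors' deposited table). Ifngr1 and Ifngr2, the interferon gamma receptor chains, were at 19.1 and 17.4 FPKM with SAA1, against 15.9 and 16.6 FPKM with vehicle. Ifng was at 0.101 FPKM with SAA1 and 0.165 FPKM with vehicle and was not tested.

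Markers of T cells and Th17 cells were expressed, and most of those of myeloid, dendritic and B cells were under 1 FPKM, while some CD8 and NK cell markers were not. All 6 Th17 markers were called higher with SAA1, against 3.97% of all tested rows, and 5 of them with a normal p of the statistic. The 9 T cell markers summed to 1598 FPKM with SAA1 and 1668 FPKM with vehicle, with Thy1 called higher and Cd3e lower, which came to 0 calls with a fold minimum of 1.5 or a normal p of the statistic. The 18 myeloid and dendritic cell markers summed to 6.49 FPKM with SAA1 and 4.21 FPKM with vehicle, 17 of them under 1 FPKM in both groups and C1qa and C1qb at 0. The exception, Batf3, also a T cell factor, was called higher, at 5.04 FPKM with SAA1 and 2.06 FPKM with vehicle, a call that ended with a normal p. The 8 B cell markers summed to 2.55 FPKM with SAA1 and 3.63 FPKM with vehicle, 7 of them under 1 FPKM in both groups. The exception, Ebf1, was at 0.811 FPKM with SAA1 and 1.49 FPKM with vehicle and was not called (adjusted p 0.063, by the authors' deposited table). Nkg7, the most abundant of 9 CD8 and NK cell markers, was at 31.4 FPKM with SAA1 and 33.5 FPKM with vehicle. Of the same list, Cd8b1 was at 4.24 FPKM with SAA1 and 4.32 FPKM with vehicle, and Gzmb at 2.55 FPKM with SAA1 and 3.53 FPKM with vehicle. Prf1 went the other way, at 1.02 FPKM with SAA1 and 0.604 FPKM with vehicle, a log2 ratio of 0.76 ± 0.48. By the authors' deposited table its unadjusted p was 0.031 and its adjusted p 0.23, so it was not called. The part of other cells in the class I values was not tested.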

How the data were processed

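RNA was made into TruSeq libraries per the labels' protocols, and the 4 libraries were grouped by title. TopHat2 and Cuffdiff, without versions, and the builds mm9 and mm10 are named in the submitters' processing notes. For library type, filters and scaling, the settings were not given in the sources used here. One deposited table, laid out as Cuffdiff's gene differences per the file headers, holds the authors' FPKM per group, a test statistic that serves as a score, and the authors' p-value and adjusted p (q-value). Of its rows with a symbol in the GRCm38 gene table, 99.0% overlap the GRCm38 position, so coordinates are on mm10 with starts counted from 1.

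Log2 ratios of SAA1 over vehicle were computed from the deposited FPKM, and each SE taken as that ratio over the deposited statistic, with 95% intervals from the normal distribution. These intervals are wider than the deposited p-values imply. A row was called at the authors' adjusted p under 0.05 over all tested rows. The limma, edgeR, replicate block and leave-one-out fits foreseen for values per library were not run. List medians used a pseudocount of 0.1 FPKM over rows reaching 1 FPKM in 1 group or both, so changes of low genes are understated. The functions were tested on simulated data.

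The members and lists were chosen with earlier results of these data known. Genes named were the 10 members, the called rows of each list, up to 2 with the largest ratio where fewer than 2 were called, the constitutive catalytic subunits, the called rows of the MHC interval and Il17a; H2-T23, Psme1, Psme2, Psmb2, Rfx5, Nlrc3, Irf1, Ifngr1, Ifngr2, Ifng, Ciita, Igtp, Bst2, Nkg7, Cd8b1, C1qa, C1qb, H2-L, Patl2 and Trim69 were chosen after their values were seen. Tnf, H2-Q8, H2-Q10 and Mir219-1 were also chosen after their values were seen. Not every gene counted in a list is reported here. Python 3.11.15, pandas 2.3.3 and scipy 1.17.1 were used.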

Additional observations from a re-analysis of the deposited data

How the results depend on the processing

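The 0 calls among the members held at adjusted p thresholds of 0.01 and 0.1, with a fold minimum of 1.5, with the adjustment over expressed rows, with a normal p of the statistic and without rows that share a locus; an unadjusted p under 0.05 gave 2. The median of the members lay between -0.13 and -0.11 over its alternatives, and no member changed sign on centring or with a pseudocount of 1. The single call among the other loading and trimming genes became 0 with a fold minimum of 1.5 and 0 with a normal p. The non-classical class I genes held 3 at an unadjusted p under 0.05, a level that 15.8% of all tested rows passed. The interferon gamma induced GTPases held 3 calls at 0.01, 8 at 0.1, 8 at an unadjusted p and 3 with a normal p, and the antiviral genes 4 at 0.01, 11 at an unadjusted p and 4 with a normal p. The MHC interval held 3 at 0.01, 10 at an unadjusted p, 3 with a fold minimum of 1.5 and 1 with a normal p. The median of the class II genes turned from 0.26 to -0.11 when rows down to 0.1 FPKM were let in, with 11 rows in place of 7. The cause of these shifts was not tested, beyond the stricter or looser threshold itself. No paired analysis was possible because the table holds 1 value per group, and for the same reason no replicate could be left out. The normal p was chosen after seeing the data. Depth is unknown, so what it limits could not be computed.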
